A study of Mus musculus with 9 samples.

Results

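The keratin gene family was followed across cultured skin-derived precursor cells and cells sorted from mouse skin. Members were the genes of the array annotation whose symbol has the form Krt, a number and at most 1 letter, without keratin-associated proteins and pseudogenes. This gave 51 of the 19938 genes measured, each read by 1 probe set. Krt74 also has a symbol of this form but is a transcribed pseudogene in the RefSeq gene table, and it was left out. The data are 9 Affymetrix Mouse Gene 1.0 ST arrays, each of a separate preparation without technical replicates. SKP replicates 3, 4, 5 and 6 are primary-passage colonies of skin-derived precursor cells (SKPs), which grow as floating spheres from dissociated skin. Sorted replicates 2, 16, 17, 18 and 20 are cells of Sox2:EGFP reporter mice that carried EGFP and lacked the surface protein CD34, collected by flow sorting without culture. Both sample kinds came from neonatal back skin (postnatal day 4), and the labels name no mouse line for the SKPs. Cultured colonies and freshly sorted cells differ in handling as well as in cell choice, which cannot be told apart. The RNA of the gate's 2 genes was measured too. Sox2 was at 5.78, 6.25, 6.20 and 6.41 in SKPs, against 9.25, 8.61, 8.40, 8.24 and 8.97 in sorted cells. Cd34 was at 11.34, 11.14, 11.62 and 11.61 in SKPs, against 10.19, 7.82, 7.59, 7.31 and 10.27 in sorted cells, so that sorted replicates 2 and 20 carried more Cd34 RNA than the other sorted arrays although the sort was for cells without the protein.

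Keratins are the intermediate filament proteins of epithelial cells. Every filament is built from an acidic type I and a basic type II keratin, and each epithelial compartment of skin uses its own pairs. Proliferating basal cells of the epidermis and of the outer root sheath carry Krt5 with Krt14. Cells that leave the basal layer switch to Krt1 with Krt10, the layers of the inner root sheath carry a set of their own, and the hair shaft is filled with hard, cysteine-rich hair keratins. Simple epithelia and Merkel cells carry Krt8 with Krt18. Dermal cells, the usual source of SKPs and of the dermal papilla at the base of the follicle, fill their cytoplasm with vimentin instead. The 51 genes were grouped on such textbook knowledge into 3 basal, 10 suprabasal, 6 outer root sheath and inducible, 5 simple, 7 inner root sheath and 13 hair shaft keratins, with 7 others.

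All 3 basal and all 7 inner root sheath keratins were lower in SKPs than in sorted cells, as were 4 of 10 suprabasal, 4 of 6 outer root sheath and inducible, 1 of 13 hair shaft and 1 of 7 other keratins, while none of the 5 simple keratins passed the test. Of the 51 keratins, 20 were lower in SKPs (limma moderated test, adjusted p under 0.05 over all genes), against 16.9% of all genes. None was higher, against 20.2% of all genes. At an unadjusted p under 0.05, 27 keratins were lower and 0 higher, against 20% and 25.3% of all genes. Limma with array weights called 30 keratins lower and 3 higher, against 22.6% and 30.8% of all genes. The median log2 difference of SKPs minus sorted cells was -0.96 over the keratins and 0.07 over all genes. In 19 keratins every SKP array lay below every sorted array, as it did in 15.5% of all genes, and 19 of the called keratins differed by at least 2-fold, against 6.25% of all genes. The rule did not use these values. All levels are log2 RMA values as deposited by the authors, and no detection calls were used here. Levels under 6.31, where the lowest 33.3% of genes by mean lie, were treated as dim: 16 keratins had an overall mean under this limit, and 11 of the 20 lower ones had an SKP mean under it, so their fold changes are approximate. In bulk samples such as these, fewer cells of a type and less RNA per cell cannot be told apart.

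**Figure D1:**
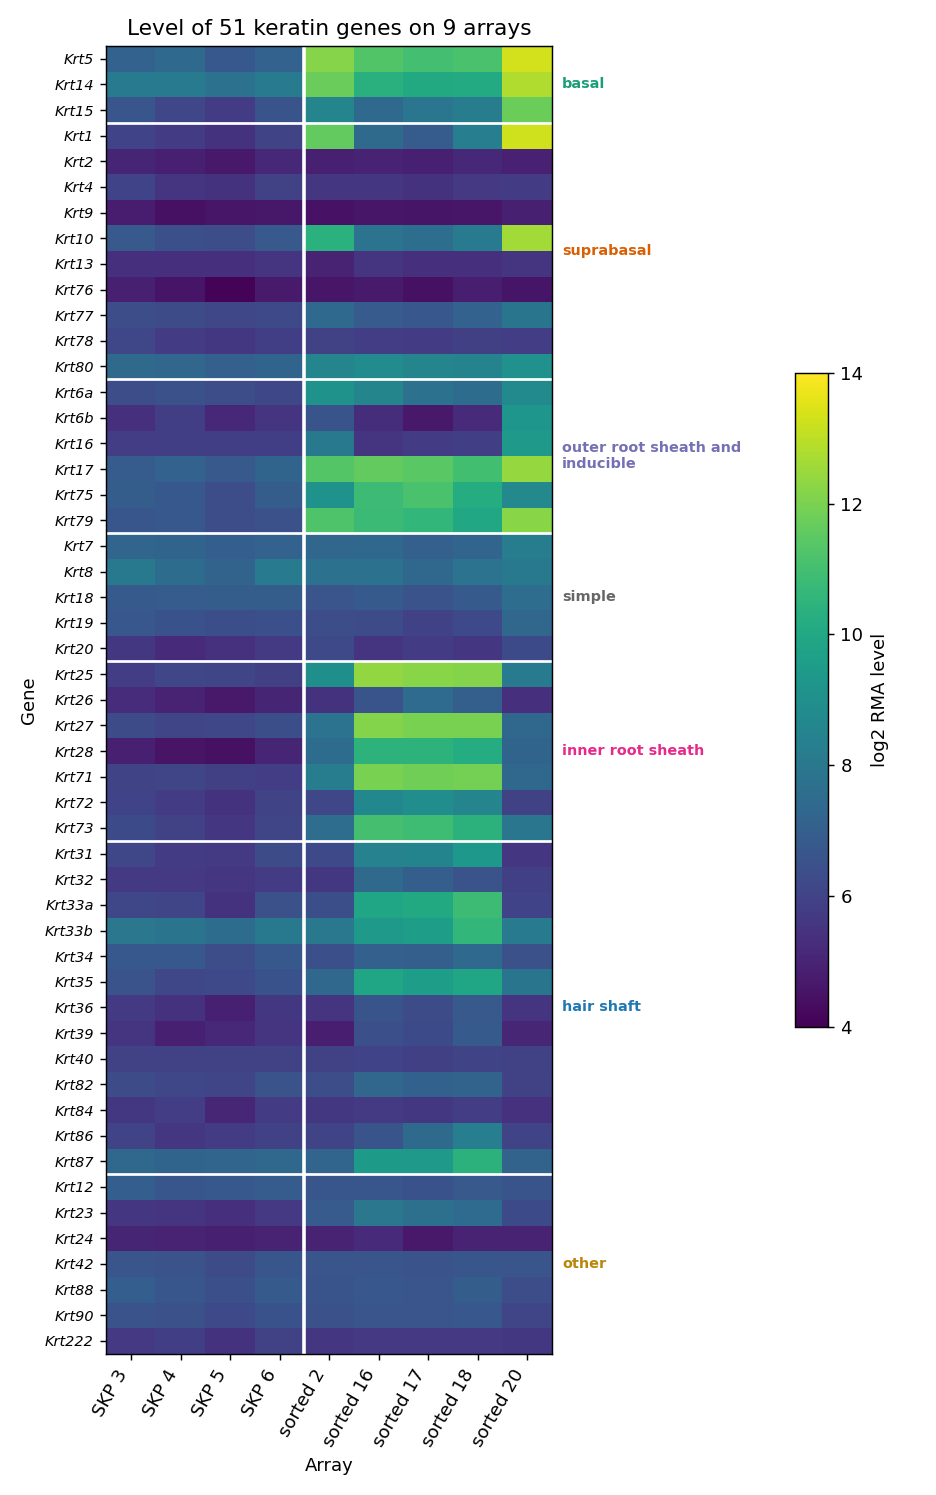
Heat map of the log2 RMA level of 51 keratin genes (rows, by group) on the 4 SKP arrays (left of the white line) and the 5 sorted arrays (right of it). Among the sorted columns the 3 basal rows are brightest on replicate 20, while the 7 inner root sheath rows and 11 of the 13 hair shaft rows are brighter on replicates 16, 17 and 18 than on 2 and 20.

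The sorted arrays did not share 1 keratin profile. Over the 7 inner root sheath genes the mean level was 5.80, 5.64, 5.47 and 5.75 on the SKP arrays, against 7.39, 10.46, 10.54, 10.32 and 7.04 on sorted replicates 2, 16, 17, 18 and 20. Over the 13 hair shaft genes it was 6.29, 6.10, 5.92 and 6.35 on the SKP arrays and 6.28, 7.71, 7.68, 8.16 and 6.24 on the sorted arrays in the same order. The mean levels of the sheath and shaft groups were thus high on sorted replicates 16, 17 and 18 and low on 2 and 20. Over the 3 basal genes the mean was 7.33, 7.22, 6.76 and 7.30 on the SKP arrays, against 10.82, 9.69, 9.66, 9.80 and 12.63 on the sorted arrays. Over the 10 suprabasal genes it was 5.88, 5.63, 5.49 and 5.81 in SKPs and 6.84, 6.21, 6.03, 6.35 and 7.43 in sorted cells. Both epidermal means were thus highest on sorted replicate 20, followed by replicate 2. Replicates 16, 17 and 18 were all above 2 and 20 in 23 keratins, among them 7 of 7 inner root sheath and 11 of 13 hair shaft genes, and this order held in 26.1% of all genes. The opposite order, with 2 and 20 above the other 3, held in 12 keratins, among them 3 of 3 basal genes, and in 22.6% of all genes. Because replicates 2 and 20 stand apart, results are also given without them: 30 keratins were then lower in SKPs (21.1% of all genes) and 1 was higher (25.4% of all genes). All 20 genes called in all arrays were called lower again, and the 10 additional ones were all hair shaft keratins. These arrays were set apart by keratin levels themselves, low hair shaft levels included, so the gain of hair shaft calls follows from leaving them out, and values without them are a description and no independent test.

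**Figure D2:**
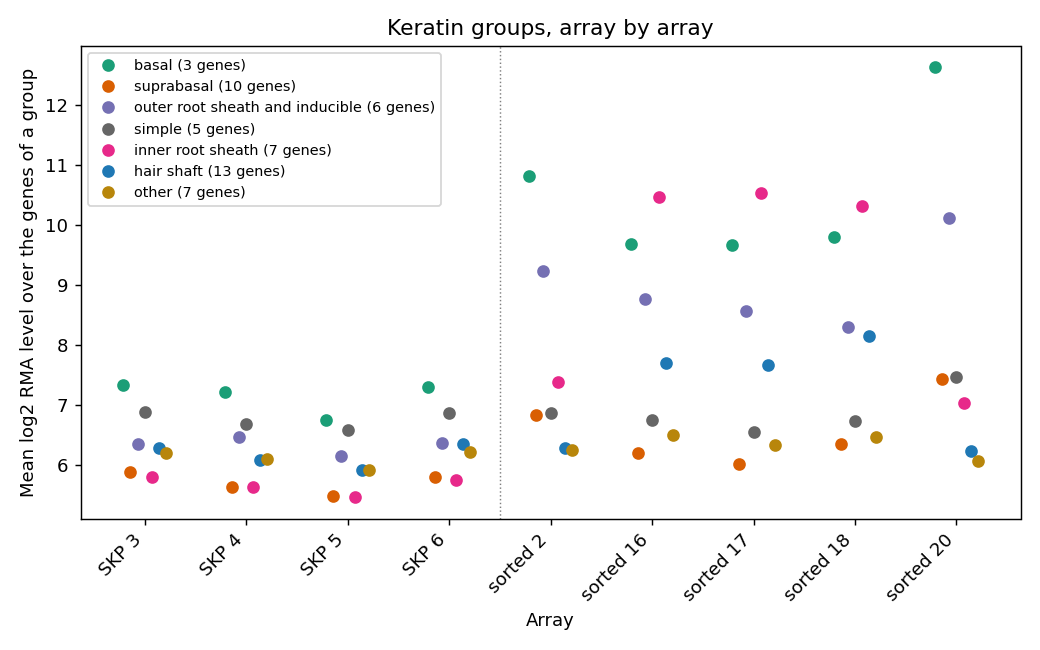
Mean log2 RMA level over the genes of each keratin group (colours) on each of the 4 SKP and 5 sorted arrays; each point is 1 array. The basal mean is 12.63 on sorted replicate 20 and 9.66 on replicate 17, whereas the inner root sheath mean is 7.04 on replicate 20 and 10.54 on replicate 17; all SKP means lie between 5.47 and 7.33.

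All 3 basal keratins were lower in SKPs. Krt5, the type II keratin of basal keratinocytes, was at 7.14, 7.41, 6.76 and 7.13 on SKP replicates 3, 4, 5 and 6, against 12.19, 11.30, 11.02, 11.11 and 13.33 on sorted replicates 2, 16, 17, 18 and 20, an order kept for all values that follow. The SKP values all lay far below the sorted ones, and Krt5 was 25.6-fold lower (log2 difference -4.68, SE 0.43, adjusted p = 2.13e-05). Krt14, its type I partner, was at 8.18, 8.14, 7.77 and 8.16 in SKPs and 11.73, 10.34, 10.07, 10.10 and 12.80 in sorted cells. The groups did not overlap, SKP replicate 5 was the lowest array, and Krt14 was 7.71-fold lower (log2 -2.95, SE 0.53, adjusted p = 0.00145). Krt15, a type I keratin of basal cells that also marks the stem cell bulge of the follicle, was at 6.67, 6.11, 5.75 and 6.61 in SKPs and 8.53, 7.43, 7.91, 8.19 and 11.76 in sorted cells. Sorted replicate 20 stood well above the other sorted arrays, and Krt15 was 5.58-fold lower (log2 -2.48, SE 0.75, adjusted p = 0.0259), or 3.32-fold without that array. Its call was lost on leaving out SKP replicate 4, 5 or 6 (adjusted p = 0.0512 to 0.0718). Without sorted replicates 2 and 20 the log2 differences were -4.03 for Krt5, -2.11 for Krt14 and -1.56 for Krt15, with adjusted p values of 1.72e-07, 2.01e-06 and 8.92e-04.

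Of the 10 suprabasal keratins, 4 were lower in SKPs and the other 6 were dim in both groups. Krt1, the type II keratin of the spinous layer, was at 6.02, 5.78, 5.48 and 6.07 in SKPs and 11.59, 7.45, 6.92, 8.28 and 13.29 in sorted cells. No sorted array was as low as an SKP array, but the sorted arrays themselves were widely spread, with replicates 20 and 2 at the top. Krt1 was 12.7-fold lower (log2 -3.67, adjusted p = 0.0352), 6.59-fold without sorted replicate 20 and 19.9-fold without sorted replicate 17. Krt10, its type I partner, was at 6.78, 6.44, 6.37 and 6.81 in SKPs and 10.40, 7.82, 7.63, 8.17 and 12.62 in sorted cells, with the same 2 arrays on top. It was 6.63-fold lower (log2 -2.73, SE 0.92, adjusted p = 0.0410) and 3.75-fold without sorted replicate 20. The calls of Krt1 and Krt10 were lost on leaving out any SKP array or sorted replicate 2 (adjusted p = 0.0719 to 0.0817 for Krt1 and 0.0798 to 0.0903 for Krt10). Without both sorted replicates 2 and 20 the remaining arrays were less spread, and Krt1 (-1.71, adjusted p = 0.00119) and Krt10 (-1.27, adjusted p = 1.67e-04) were called. As these arrays were set apart by keratin levels themselves, the smaller spread follows from leaving them out and does not make the calls firmer.

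Krt80, a type II keratin of differentiating epithelial cells, was at 7.45, 7.29, 7.08 and 7.23 in SKPs, against 8.56, 8.83, 8.54, 8.48 and 9.04 in sorted cells. In contrast to Krt1 and Krt10 it was even among the sorted arrays, and it was 2.69-fold lower (log2 -1.43, SE 0.13, adjusted p = 2.00e-05). Krt77, a relative of Krt1, was at 6.36, 6.27, 6.12 and 6.22 in SKPs and 7.42, 6.87, 6.71, 7.13 and 7.88 in sorted cells, with a log2 difference of -0.96 (adjusted p = 0.00504). The remaining 6 were Krt2 and Krt9, of late epidermal layers and footpad skin, Krt4 and Krt13, of the lining of mouth and oesophagus, and Krt76 and Krt78. They lay between 4.09 and 6.12 on the SKP arrays and between 4.46 and 5.97 on the sorted arrays, with log2 differences from -0.07 to 0.14. None of these 6 was above the dim limit on any array, also not where Krt1 and Krt10 were high.

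The outer root sheath and inducible keratins split into 4 that were lower in SKPs and 2 that were not called. Krt17, a type I keratin of the outer root sheath and of follicle precursors, was at 6.92, 7.16, 6.80 and 7.23 in SKPs, against 11.33, 11.61, 11.45, 10.99 and 12.41 in sorted cells. It was 23.1-fold lower (log2 -4.53, SE 0.24, adjusted p = 6.14e-07), and its sorted values ranged from 10.99 on replicate 18 to 12.41 on replicate 20. Krt79, a type II keratin of the upper follicle and sebaceous duct, was at 6.66, 6.75, 6.38 and 6.48 in SKPs and 11.24, 10.80, 10.62, 10.01 and 12.23 in sorted cells, 21.3-fold lower (log2 -4.41, SE 0.36, adjusted p = 9.82e-06). Krt75, the type II keratin of the companion layer between outer and inner root sheath, was at 6.97, 6.76, 6.36 and 6.93 in SKPs and 9.11, 10.85, 11.13, 10.18 and 8.71 in sorted cells. Replicates 16, 17 and 18 were above 2 and 20, as in the inner root sheath genes, and it was 9.46-fold lower (log2 -3.24, SE 0.47, adjusted p = 3.96e-04). Krt6a, a type II keratin of the companion layer that is induced by wounding, was at 6.36, 6.47, 6.35 and 6.17 in SKPs and 9.15, 8.53, 7.74, 7.55 and 8.73 in sorted cells, 4.01-fold lower (SE of the log2 difference 0.30, adjusted p = 4.78e-04).

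Krt16, the wound-induced type I partner of the Krt6 proteins, was at 5.82, 5.85, 5.86 and 5.85 in SKPs and 8.03, 5.53, 5.78, 5.86 and 9.39 in sorted cells. Sorted replicates 2 and 20 stood above all other arrays, while replicates 16, 17 and 18 lay at the SKP level, and the gene was not called (log2 -1.07, adjusted p = 0.289; 0.12, adjusted p = 0.314 without replicates 2 and 20). Krt6b, a close paralogue of Krt6a, was at 5.40, 5.84, 5.14 and 5.52 in SKPs and 6.58, 5.32, 4.69, 5.19 and 9.27 in sorted cells. It stood out on sorted replicate 20 as Krt16 did and was not called (log2 -0.73, adjusted p = 0.512). Probes of Krt6a and Krt6b may share targets, so their separation is uncertain.

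None of the 5 simple keratins was called, with 0 in either direction at an unadjusted p under 0.05 as well. Krt8, the type II keratin of simple epithelia and Merkel cells, was at 8.05, 7.52, 7.17 and 8.09 in SKPs and 7.78, 7.78, 7.38, 7.81 and 8.04 in sorted cells. The groups overlapped fully, and the log2 difference was -0.05 with a 95% interval from -0.50 to 0.40 (adjusted p = 0.875). Krt18, its type I partner, was at 6.83, 6.90, 6.95 and 6.95 in SKPs and 6.65, 6.83, 6.55, 6.83 and 7.58 in sorted cells (log2 0.02, interval -0.39 to 0.43, adjusted p = 0.947). Krt7, of glandular and ductal epithelia, was at 7.25, 7.23, 6.98 and 7.15 in SKPs and 7.31, 7.36, 7.06, 7.25 and 8.23 in sorted cells (log2 -0.29, interval -0.75 to 0.18, adjusted p = 0.316). In each of these 3 genes sorted replicate 20 was the highest sorted array. Krt19, a type I keratin of ducts and of the follicle bulge, was at 6.71, 6.53, 6.42 and 6.44 in SKPs and 6.38, 6.30, 5.99, 6.20 and 7.30 in sorted cells (log2 0.09, adjusted p = 0.787). Without sorted replicates 2 and 20 Krt19 was the 1 keratin called higher in SKPs (log2 0.36, adjusted p = 0.0177), and it was also called without replicate 20 alone (adjusted p = 0.0417). Krt20, of Merkel cells and gut, was at 5.63, 5.24, 5.44 and 5.71 in SKPs and 6.22, 5.54, 5.78, 5.59 and 6.25 in sorted cells (log2 -0.37, adjusted p = 0.126). Of 9 non-keratin Merkel cell markers, 1 was lower in SKPs (Syp, of synaptic vesicles, log2 -0.50, adjusted p = 0.0336, a call lost without SKP replicate 4 or 5 or sorted replicate 2 or 18) and 1 higher (Cck, a peptide hormone, log2 4.15, adjusted p = 5.62e-06). The transcription factor Atoh1, which specifies Merkel cells, was at 5.63, 5.76, 5.61 and 6.01 in SKPs and 5.54, 5.76, 5.58, 5.92 and 7.09 in sorted cells, above the dim limit on replicate 20 only. The 7 Merkel markers other than Syp and Cck, Atoh1 included, were not called, and the median log2 difference of the list was 0.02. Over all genes 16.9% were lower and 20.2% higher. Without sorted replicates 2 and 20 the list had 2 lower and 3 higher genes, against 21.1% and 25.4% of all genes. Piezo2 was among the lower ones (log2 -1.02, adjusted p = 7.64e-05).

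All 7 inner root sheath keratins were lower in SKPs, with a median log2 difference of -4.02, or -5.65 without sorted replicates 2 and 20. These genes encode the filaments of the Henle, Huxley and cuticle layers, which mould the growing hair. The SKP means of all 7 were under the dim limit. Krt25, of type I, was at 5.82, 6.14, 6.08 and 5.91 in SKPs and 8.96, 12.37, 12.22, 12.14 and 8.10 in sorted cells. Replicates 16, 17 and 18 were the high arrays, replicates 2 and 20 lay between them and the SKPs, and Krt25 was 27.3-fold lower (log2 -4.77, SE 0.88, adjusted p = 0.00181), or 43.2-fold without replicate 20. Krt27, of type I, was at 6.34, 6.08, 6.13 and 6.40 in SKPs and 7.81, 12.15, 11.99, 12.00 and 7.37 in sorted cells. It was 16.3-fold lower (log2 -4.02, SE 1.05, adjusted p = 0.0122), 24.9-fold without sorted replicate 2 and 26.9-fold without replicate 20. Krt71, a type II keratin of all sheath layers whose mutation gives curly coats, was at 6.04, 6.08, 5.88 and 5.80 in SKPs and 8.26, 11.98, 11.82, 11.90 and 7.35 in sorted cells. Replicates 16, 17 and 18 were again above 2 and 20, and it was 19.8-fold lower (log2 -4.31, SE 0.97, adjusted p = 0.00568), or 32.8-fold without replicate 20.

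Krt28, of type I, was at 4.90, 4.51, 4.46 and 5.02 in SKPs and 7.55, 10.47, 10.45, 10.20 and 7.21 in sorted cells, 21.9-fold lower (log2 -4.45, SE 0.71, adjusted p = 7.53e-04). Krt73, a type II keratin of the sheath cuticle, was at 6.23, 5.98, 5.58 and 6.08 in SKPs and 7.58, 11.04, 10.90, 10.42 and 7.92 in sorted cells, 12.2-fold lower (adjusted p = 0.00308). In both, replicates 16, 17 and 18 were above 2 and 20, and every SKP array was below every sorted array. Krt72, also of the sheath cuticle, was at 6.02, 5.72, 5.47 and 6.04 in SKPs and 6.11, 8.67, 8.88, 8.55 and 5.98 in sorted cells, and its groups overlapped. Its call (log2 -1.83, adjusted p = 0.0455) was lost on leaving out any SKP array or sorted replicate 16, 17 or 18 (adjusted p = 0.0819 to 0.105). Krt26, of type I, was at 5.25, 5.00, 4.70 and 5.02 in SKPs and 5.48, 6.58, 7.51, 7.04 and 5.38 in sorted cells (log2 -1.41, adjusted p = 0.0226), and its call was lost without SKP replicate 4, 5 or 6 or sorted replicate 18 (adjusted p = 0.0509 to 0.0639). Without sorted replicates 2 and 20 all 7 were again lower. The pseudogene Krt74 had a log2 difference of -0.50 (adjusted p = 0.295).

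**Figure D3:**
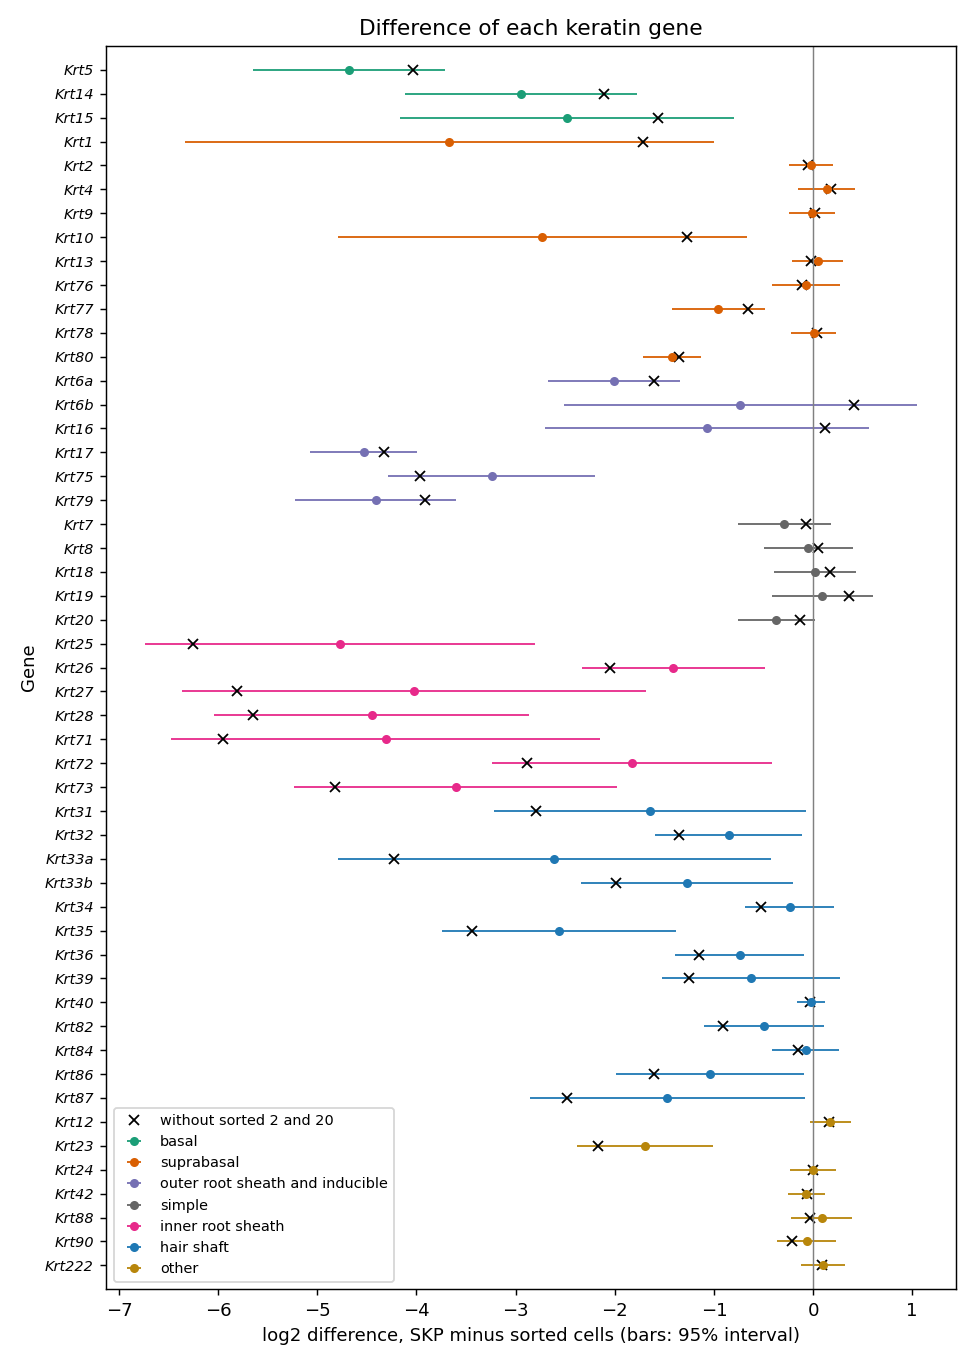
Log2 difference of SKPs minus sorted cells for 51 keratin genes (rows, coloured by group); points are estimates from all 9 arrays, bars 95% intervals and crosses the estimate without sorted replicates 2 and 20. Leaving out these arrays moves the called basal and suprabasal genes towards 0 (Krt1 is at -3.67 in all arrays and -1.71 without them). Inner root sheath and hair shaft genes move away from 0 (Krt25 is at -4.77 in all arrays and -6.25 without them).

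Because replicates 16, 17 and 18 were above 2 and 20 in all 7 inner root sheath and 11 of 13 hair shaft genes, sequences before their start sites are shown. Of the 51 keratins, 36 had an entry in the RefSeq promoter table (GRCm38.p6), with 37 windows of 300 bases, 250 before and 50 after the start. The lines give 3 inner root sheath and 2 hair shaft windows, 5′ to 3′ on the strand of the gene, with every TATAAA (the core of a TATA box) and CTTTGAA (the core bound by LEF1, a regulator of hair keratin genes) in capitals, searched on both strands. These motifs were chosen after the sequences were seen.
Krt25, chr11:99322902-99323201, minus strand: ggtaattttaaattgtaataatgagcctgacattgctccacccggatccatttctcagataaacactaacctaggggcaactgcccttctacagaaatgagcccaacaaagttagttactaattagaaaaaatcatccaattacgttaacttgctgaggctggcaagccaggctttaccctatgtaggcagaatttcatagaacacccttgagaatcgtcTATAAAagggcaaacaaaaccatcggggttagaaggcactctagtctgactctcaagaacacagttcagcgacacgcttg
Krt27, chr11:99351069-99351368, minus strand: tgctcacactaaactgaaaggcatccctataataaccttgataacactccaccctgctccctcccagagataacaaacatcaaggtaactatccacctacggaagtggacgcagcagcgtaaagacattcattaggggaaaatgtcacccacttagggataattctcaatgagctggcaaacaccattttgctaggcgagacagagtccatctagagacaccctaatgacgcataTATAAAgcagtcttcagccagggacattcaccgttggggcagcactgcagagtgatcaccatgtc
Krt71, chr15:101743048-101743347, minus strand: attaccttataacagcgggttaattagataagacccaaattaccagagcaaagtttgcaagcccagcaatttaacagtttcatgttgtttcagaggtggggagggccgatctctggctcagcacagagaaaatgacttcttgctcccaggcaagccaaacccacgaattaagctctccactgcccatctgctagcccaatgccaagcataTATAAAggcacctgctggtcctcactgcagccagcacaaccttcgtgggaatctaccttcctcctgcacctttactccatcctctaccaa
Krt31, chr11:100050502-100050801, minus strand: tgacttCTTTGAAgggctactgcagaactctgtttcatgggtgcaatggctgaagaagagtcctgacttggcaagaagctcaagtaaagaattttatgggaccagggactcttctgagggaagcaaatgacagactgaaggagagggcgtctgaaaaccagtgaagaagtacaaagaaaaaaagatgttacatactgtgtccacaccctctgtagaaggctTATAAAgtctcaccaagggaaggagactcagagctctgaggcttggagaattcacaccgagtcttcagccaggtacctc
Krt33b, chr11:100029819-100030118, minus strand: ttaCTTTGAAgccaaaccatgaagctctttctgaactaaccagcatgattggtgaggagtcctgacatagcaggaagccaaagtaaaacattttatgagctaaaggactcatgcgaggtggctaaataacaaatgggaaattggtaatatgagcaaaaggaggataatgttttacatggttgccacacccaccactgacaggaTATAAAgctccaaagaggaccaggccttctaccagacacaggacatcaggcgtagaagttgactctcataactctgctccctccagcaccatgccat
TATAAA was in 7 of 7 inner root sheath windows, 6 of 9 hair shaft windows, 0 of 2 basal, 0 of 2 outer root sheath, 2 of 8 suprabasal, 2 of 4 simple and 2 of 5 other windows. This made 19 of 37 keratin windows, against 13.6% of the 32851 windows of all genes. In 6 of the inner root sheath genes it stood on the gene's own strand with its first base between -40 and -15 relative to the start, and in Krt72 it stood only on the other strand, at -203. CTTTGAA was in 5 of 9 hair shaft windows (Krt31, Krt32, Krt33b, Krt34 and Krt39), in 1 of 7 inner root sheath windows (Krt28) and in no window of the other keratin groups, and in 5.1% of the windows of all genes. In Krt31, Krt32, Krt33b and Krt34, neighbouring genes of similar sequence, it began between -247 and -240, with another match at -133 in Krt34. A match describes letters in these windows and not a bound site.

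Of the 13 hair shaft keratins 1, Krt35, was lower in SKPs, against 16.9% of all genes. At an unadjusted p under 0.05, 8 were lower, against 20% of all genes. In 11 of the 13 genes sorted replicates 2 and 20 lay below replicates 16, 17 and 18, as in 26.1% of all genes. Leaving out replicates 2 and 20, which are set apart by this same low level, gave 11 calls, against 21.1% of all genes. The choice of arrays itself brings these calls about. Krt35, a type I keratin of the hair matrix and cuticle that appears early in shaft formation, was at 6.55, 6.12, 6.22 and 6.50 in SKPs and 7.34, 9.91, 9.58, 9.87 and 7.87 in sorted cells. It was above the SKP level on all sorted arrays and 5.92-fold lower in SKPs (log2 -2.56, SE 0.53, adjusted p = 0.00346). Krt33b, a type I keratin of the hair cortex, was at 7.95, 7.85, 7.53 and 8.06 in SKPs and 7.99, 9.36, 9.55, 10.61 and 8.10 in sorted cells. Replicates 2 and 20 lay at the SKP level, and the log2 difference was -1.27 (adjusted p = 0.0621) in all arrays and -1.99 (adjusted p = 3.59e-04) without them. Krt87, a type II hair keratin, was at 7.33, 7.21, 7.25 and 7.34 in SKPs and 7.27, 9.46, 9.39, 10.43 and 7.19 in sorted cells, with differences of -1.47 (adjusted p = 0.0926) and -2.48 (adjusted p = 2.83e-05). Krt33a, a close paralogue of Krt33b whose probes may share its targets, was at 6.13, 6.08, 5.46 and 6.48 in SKPs and 6.40, 9.87, 10.06, 10.87 and 6.02 in sorted cells. Krt31, of the hair cortex, was at 6.12, 5.76, 5.69 and 6.31 in SKPs and 6.20, 8.44, 8.53, 9.31 and 5.58 in sorted cells. In Krt31, Krt33a, Krt33b, Krt34, Krt36, Krt39, Krt86 and Krt87 replicate 18 was the highest array, whereas Krt32, Krt35 and Krt82 were highest on replicate 16.

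Without replicates 2 and 20 the differences were -4.23 for Krt33a (adjusted p = 4.90e-06) and -2.79 for Krt31 (adjusted p = 1.65e-05), and smaller for Krt86 (-1.60), Krt32 (-1.35), Krt39 (-1.25), Krt36 (-1.15), Krt82 (-0.91) and Krt34 (-0.52). Krt84, known from tongue, and Krt40 were not called under either choice. Krt40 had the identical value of 5.95 on 6 of the 9 arrays. Sorted replicate 2 or 20 alone changed calls as well: leaving out either brought Krt31, Krt32, Krt33a, Krt33b, Krt36, Krt86 and Krt87 past the threshold (adjusted p = 0.0109 to 0.0490), and leaving out replicate 20 also brought Krt82 past it (adjusted p = 0.0196). Of 44 keratin-associated protein genes, which encode the matrix between hair keratin filaments, 3 were lower in all arrays, against 16.9% of all genes, and 21 without replicates 2 and 20, against 21.1% of all genes. Replicates 16, 17 and 18 were above 2 and 20 in 31 of the 44, against 26.1% of all genes. Of the 44 genes 27 had an overall mean under the dim limit. The mean level over all 44 was 6.01, 5.83, 5.72 and 5.97 in SKPs and 5.89, 6.71, 6.73, 7.37 and 5.65 in sorted cells, with replicate 18 on top as for Krt31 and Krt33b.

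Of the 7 other keratins only Krt23, a type I keratin without a settled place among these groups, was called. It was at 5.60, 5.55, 5.40 and 5.65 in SKPs and 6.85, 7.97, 7.67, 7.51 and 6.23 in sorted cells, 3.24-fold lower (log2 -1.70, SE 0.31, adjusted p = 0.00157), with replicates 16, 17 and 18 on top. Krt12, of the cornea, was at 6.98, 6.66, 6.75 and 6.93 in SKPs and 6.69, 6.68, 6.51, 6.80 and 6.58 in sorted cells (log2 0.18, adjusted p = 0.179). Krt42, a relative of Krt17, was at 6.63, 6.56, 6.34 and 6.69 in SKPs and 6.63, 6.63, 6.55, 6.67 and 6.63 in sorted cells (log2 -0.07). Krt88 was at 7.01, 6.67, 6.44 and 6.84 in SKPs and 6.59, 6.72, 6.65, 6.94 and 6.37 in sorted cells (log2 0.09). Krt12, Krt42, Krt88, Krt90 (log2 -0.07), Krt24 (-0.00) and Krt222 (0.10) were not called, and all values of the 6 uncalled genes lay between 4.86 and 7.01 in SKPs and between 4.68 and 6.94 in sorted cells.

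Of the type I keratins 10 of 28 were lower, and of the type II keratins 10 of 23, against 16.9% of all genes. Set side by side, partners had log2 differences of -4.68 and -2.95 for Krt5 and Krt14, -3.67 and -2.73 for Krt1 and Krt10, and -0.05 and 0.02 for Krt8 and Krt18. Krt6a, Krt16 and Krt17 received unlike calls, with Krt6a 4.01-fold and Krt17 23.1-fold lower and Krt16 not called. RefSeq places 27 type I genes on chromosome 11, and 23 type II genes lie with the type I gene Krt18 on chromosome 15. In that order of keratin genes, Krt25, Krt26, Krt27, Krt28 and Krt10 followed each other and all were lower, as were Krt6a, Krt5, Krt71, Krt72 and Krt73 on chromosome 15. Neighbours could also differ: Krt12 next to Krt10, Krt2 between Krt73 and Krt1, and Krt9 next to Krt14 were not called.

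**Figure D4:**
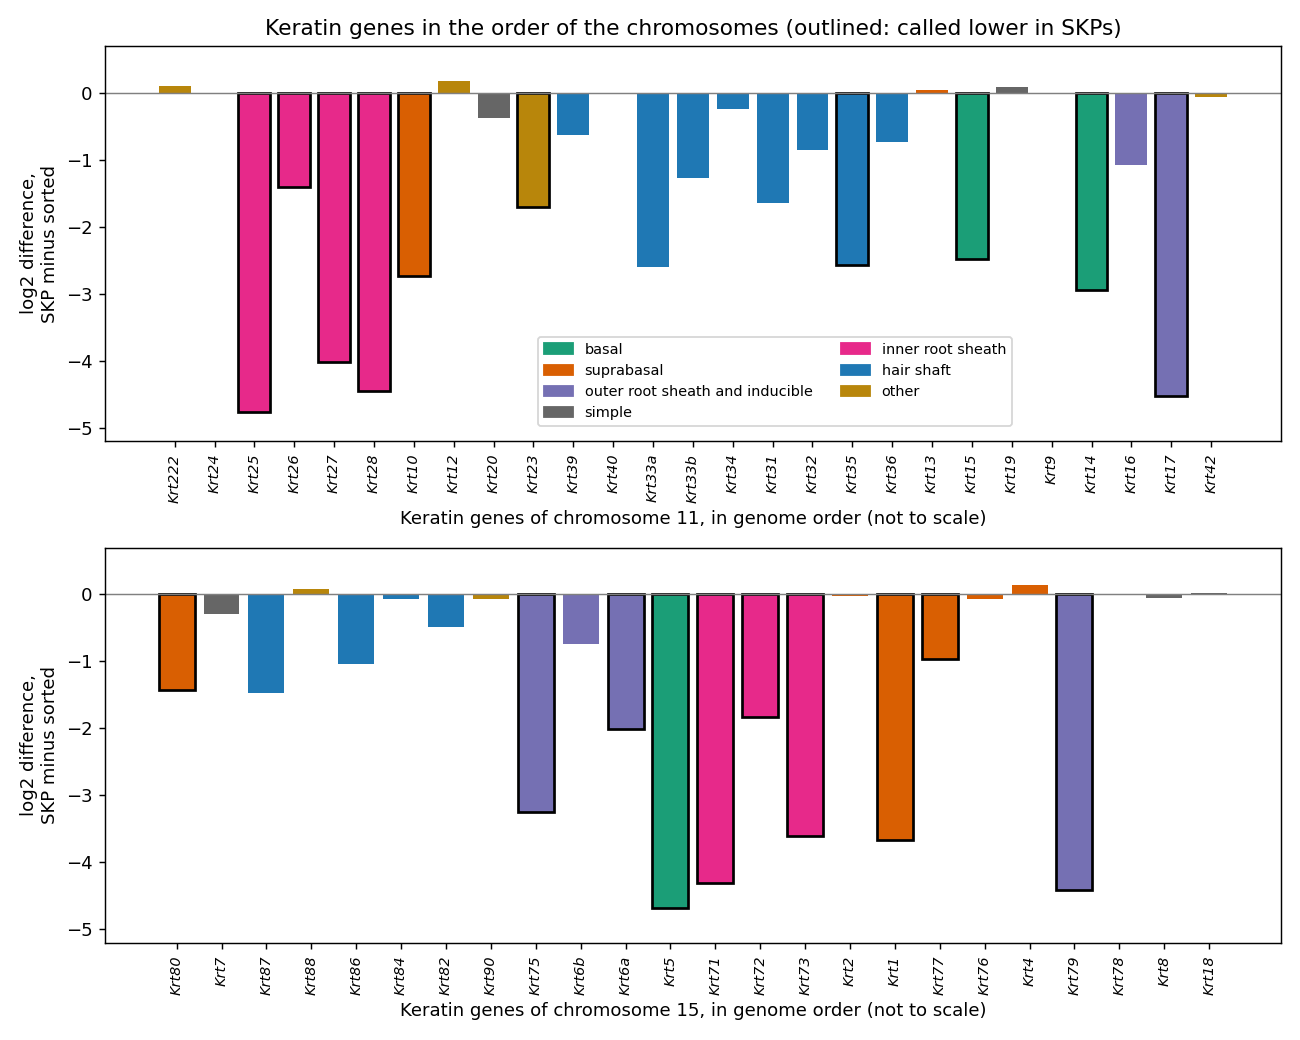
Log2 difference of SKPs minus sorted cells for the keratin genes of chromosome 11 (27 genes, top) and chromosome 15 (24 genes, bottom), in genome order, not to scale; colours give the group and outlines mark genes called lower in SKPs. The inner root sheath genes form 1 run on each chromosome, Krt25 to Krt28 and Krt71 to Krt73, and Krt5 lies beside the second run.

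Genes of proteins that keratin filaments attach to were mostly lower in SKPs too. Of 8 anchor genes 7 were lower, against 16.9% of all genes. The largest decreases were those of the desmosomal plaque genes Dsp (log2 -4.80, adjusted p = 5.38e-07) and Jup (-2.83, adjusted p = 5.71e-06). Plec, a linker also used by non-epithelial cells, had -0.02 (adjusted p = 0.929). Of 7 bundling and cornification genes 4 were lower, against the same 16.9% of all genes. Their count was 2 to 4 on leaving out each array, with 2 without SKP replicate 4, 5 or 6. Tchh, which cross-links inner root sheath keratins, was at 6.58, 6.74, 6.85 and 7.12 in SKPs and 8.51, 12.14, 12.03, 12.16 and 8.07 in sorted cells (log2 -3.76, adjusted p = 0.00799), with replicates 16, 17 and 18 above 2 and 20. Krtdap, a peptide of differentiating epidermis, was at 5.23, 4.93, 5.12 and 5.17 in SKPs and 9.78, 6.59, 6.17, 6.53 and 11.64 in sorted cells (log2 -3.03, adjusted p = 0.0444), highest on replicates 20 and 2.

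Of 10 transcriptional regulators of keratin genes 9 were lower in SKPs, against 16.9% of all genes. Gata3, a factor of the inner root sheath, was at 6.10, 6.21, 5.83 and 6.00 in SKPs and 8.31, 9.67, 9.54, 9.36 and 10.29 in sorted cells (log2 -3.40, adjusted p = 2.35e-05). Lef1, which acts in the hair matrix and also in the dermal papilla, was at 7.86, 7.56, 7.92 and 7.91 in SKPs and 9.93, 11.58, 11.46, 11.61 and 9.93 in sorted cells (log2 -3.09, adjusted p = 1.65e-04). Lef1 was highest on sorted replicates 16, 17 and 18 like the hair shaft keratins, and Gata3 on replicate 20. Hoxc13, a direct regulator of hair shaft keratins, had a log2 difference of -1.18 (adjusted p = 0.00453), and Trp63, the master regulator of basal keratinocytes, -1.55 (adjusted p = 0.00465). Foxn1, an activator of hair keratin genes, was not called (-0.80, adjusted p = 0.0532; -1.17, adjusted p = 0.00263 without sorted replicates 2 and 20). Hoxc13, Trp63 and Foxn1 were chosen after their values were seen, as were Plec, Atoh1, Piezo2, Synm, Vim, Pdgfra and Prom1.

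Of 13 non-keratin intermediate filament genes 2 were lower, Des of muscle (log2 -1.32) and Synm (-1.28). In addition, 1 was higher, the neurofilament gene Nefl (1.28, adjusted p = 6.85e-04), and the median log2 difference was -0.07. Over all genes 16.9% were lower and 20.2% higher. Nefl was at 5.88, 5.76, 6.69 and 6.63 in SKPs and 4.82, 5.09, 5.11, 5.03 and 4.73 in sorted cells. All sorted values and those of SKP replicates 3 and 4 lay under the dim limit, so its fold change is approximate. Without sorted replicates 2 and 20 the list had 2 lower and 3 higher genes, against 21.1% and 25.4% of all genes. Vim, the main filament of dermal cells, was at 13.41, 13.34, 13.54 and 13.53 in SKPs and 13.72, 13.35, 13.42, 13.31 and 13.41 in sorted cells, bright on every array (log2 0.01, adjusted p = 0.923).

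Markers of several cell types moved with the groups. The counts that follow stand against 16.9% of all genes lower in SKPs and 20.2% higher. Of 12 keratinocyte markers that are not keratins 11 were lower in SKPs, led by Dsc3 (log2 -4.86, adjusted p = 1.23e-06) and Perp (-4.32, adjusted p = 1.72e-06), both of desmosomes. Their mean level was 6.61, 6.59, 6.38 and 6.56 in SKPs and 9.19, 9.03, 8.90, 8.81 and 10.71 in sorted cells, highest on replicate 20 like the epidermal keratins. The sorted samples carried dermal papilla markers as well, 10 of 10 lower in SKPs. Their mean was 6.62 to 6.87 in SKPs and 10.53, 11.37, 11.21, 11.34 and 10.03 in sorted cells. These 10 include Sox2, whose reporter the cells were sorted by, so its call and its part in the mean are no independent result. The largest differences were those of Lepr (log2 -6.40) and Wif1 (-6.02). The papilla mean was thus highest on the arrays where inner root sheath keratins were high. Replicates 16, 17 and 18 were above 2 and 20 in 7 of the 10 markers, against 26.1% of all genes. The opposite order held in 2 markers, Sox2 and Prom1, against 22.6% of all genes. Dermal fibroblast markers had means of 12.86 to 12.96 in SKPs and 12.35, 11.33, 11.40, 11.31 and 12.12 in sorted cells. Of these 7 markers 4 were higher in SKPs, led by Lum (log2 4.33) and Dcn (1.73). Pdgfra went the other way but was not called (-0.49, adjusted p = 0.0935). Without sorted replicates 2 and 20, 6 were higher and 1, Pdgfra, was lower (-0.74, adjusted p = 0.00105), against 25.4% and 21.1% of all genes. Melanocyte markers were lower in SKPs (6 of 6, led by Tyrp1 at log2 -3.25 and Dct at -2.96), with means of 6.36 to 6.82 in SKPs and 8.46 to 9.07 in sorted cells. All 4 Schwann cell markers with a probe set, of 6 listed, were lower in SKPs (led by Erbb3 at -4.18 and Cdh19 at -3.05), with means of 6.27 to 6.61 in SKPs and 8.76 to 9.44 in sorted cells. Myeloid markers were higher in SKPs (6 of 6, led by Lyz2 at 4.61 and C1qc at 2.08), with means of 7.64 to 9.43 in SKPs and 6.03 to 6.62 in sorted cells. Trp63 stands in both the regulator and the keratinocyte list, and Sox10 in both the melanocyte and the Schwann cell list. The part of these cell types in the keratin differences was not tested.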

How the data were processed

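The authors deposited 1 table of log2 RMA levels, with 35556 probe sets and 9 arrays; RMA, Affymetrix Expression Console and limma are named, per the submitters' processing notes, and versions, settings and genome build are not given in the sources used here. RMA adjusts background, normalizes between arrays by quantiles and summarizes probes, so levels are relative within the set of arrays. Probe sets were named through the platform annotation (21789 with 1 symbol, 1621 with several, 12146 with none listed), and symbols were looked up by Entrez identifier (21698 found, 0 changed). For 999 of 19938 genes with several probe sets that with the highest mean was used. The difference of SKPs minus sorted cells was fitted by limma 3.58.1 under R 4.3.3 (lmFit, eBayes without trend, two-sided, Benjamini-Hochberg over all genes). The median of all genes was 7.15 to 7.30 on each array, and precision is limited by having 9 arrays. The fit was tested on simulated data with known changes. Fully named were the 3 brightest and the 2 most changed called keratins of each group, the partner keratins, and the 2 most changed called genes of each other list or its brightest, with further keratins named as members. Alternatives were quantile normalization, median centring, leaving out the lowest 33.3% of genes, the mean over probe sets, array weights, trend with robust eBayes, a stricter threshold and left-out arrays. Members, lists and alternatives were chosen with earlier results of these data known. Promoter sequences were taken from the RefSeq table of GRCm38.p6 with Python 3.11.15, and plots used matplotlib 3.10.9.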

Additional observations from a re-analysis of the deposited data

Results flagged for a closer look

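In 146 sets of values (73 genes in 2 groups), 11 held 1 array that stood apart from the others of its group by Dixon's criterion, where chance gives about 1 in 20. Sorted replicate 20 was high in Krt15 (11.76, other sorted arrays 7.43 to 8.53), Krt7 (8.23, others 7.06 to 7.36) and Krt18 (7.58, others 6.55 to 6.83), and also in the desmosomal genes Jup (11.01, others 9.80 to 10.12) and Dsc3 (11.99, others 10.42 to 10.76). Sorted replicate 2 was low in Krt13 (4.96, others 5.39 to 5.55). SKP replicate 5 was low in Krt14 (7.77, others 8.14 to 8.18), Krt34 (6.34, others 6.73 to 6.76) and Krt90 (6.22, others 6.49 to 6.54). SKP replicate 4 was high in Dsp (7.27, others 6.33 to 6.45) and low in Lef1 (7.56, others 7.86 to 7.92).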

How the results depend on the processing

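No paired analysis was possible because the 2 groups share no replicate number. The count of keratins lower in SKPs was 20, and between 14 (adjusted p under 0.01) and 30 (array weights, or both sorted replicates 2 and 20 left out) under the other settings; leaving out each array in turn gave 15 to 28. The count of keratins higher in SKPs was 0, 1 after quantile normalization (Krt12), 3 with array weights (Krt4, Krt12 and Krt19), 1 without both sorted replicates 2 and 20, and 0 to 1 on leaving out each array. The median log2 difference of the suprabasal group was -0.05 and became -2.08 with the lowest 33.3% of genes left out, since its 6 dim members then drop out. Of 851 pairs of a gene and a setting 777 kept their side of the threshold, 30 lost a call and 44 gained one. No gene with a call in either fit changed direction. Uncalled genes could change it, such as Krt6b (log2 -0.73 in all arrays and 0.03 without sorted replicate 20). Over all genes the calls split into 3366 lower and 4020 higher, against 2932 and 5296 after median centring, with 20 keratins lower and 0 higher in both. The median difference over all genes was 0.07 on the deposited values, 0.07 with quantile normalization and 0.14 with median centring. Counting Krt74 as a member, a choice added later, left 20 lower. Dim probe sets limit what can be said of 31 keratins with an SKP mean under 6.31.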
